A study of Mus musculus with 2 samples.

Results

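The 10 genes described here encode enzymes that build fatty acids and then lengthen or desaturate them. They are Acaca and Fasn of synthesis, Scd1, Scd2, Fads1 and Fads2 of desaturation, and Elovl1, Elovl5, Elovl6 and Elovl7 of elongation. They were taken by gene name from the deposited gene table, where all 10 were found among 51826 genes, and their 36 transcripts were taken by gene ID from 128622 in the transcript table. The tissue was whole spinal cord, taken on postnatal day 7 from C57BL/6 animals. The conditional knockout (cKO) combined Olig1-Cre with Secisbp2l floxed at its exon 3, and the controls were wild type (WT). Secisbp2l encodes a relative of SECISBP2, which recognises the selenocysteine insertion element in mRNAs of selenoproteins. Recombination by Olig1-Cre is directed to cells of the oligodendrocyte lineage, and the cord also holds neurons, astrocytes, microglia and vessel cells. Each group has 1 library, and the number of animals behind it is not in the labels. No difference below therefore has a replicate check, and no p-value is given.

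Fatty acid synthesis starts when acetyl-CoA carboxylase makes malonyl-CoA, and fatty acid synthase then assembles palmitate from it. Elongases of the ELOVL family start each round of chain lengthening in the endoplasmic reticulum, and desaturases introduce double bonds, those of the SCD family giving monounsaturated and those of the FADS family polyunsaturated chains. Oligodendrocytes make large amounts of lipid while they wrap axons, and myelin is rich in very long saturated and monounsaturated chains.

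The cKO library held 55179026 estimated counts and the WT library 42875143, and a sequenced fragment corresponds to about 2 of them. Levels are given as counts per 1000000 counts (CPM) on library sizes scaled by TMM, a method that balances the bulk of genes between libraries. Ratios are log2 of cKO over WT, each with an exact 95% interval that covers counting error only. A gene was measured where its mean was at least 1 CPM, which left 15917 genes, with a median log2 ratio of 0.01 and quartiles of -0.14 and 0.15. The targeted gene Secisbp2l had 466 CPM in cKO and 588 CPM in WT, and values for whole transcripts do not check the deletion of its exon. The libraries also differed in sex-linked genes: Xist had 13 counts in cKO and 35182 in WT, and the Y-linked Ddx3y had 4280 counts in cKO and 0 in WT. The labels name Olig1-Cre for the cKO animals only. Olig1 itself had 176 CPM in cKO and 388 CPM in WT (log2 ratio -1.14, interval -1.20 to -1.09). The floxed Secisbp2l, the Olig1-Cre allele and this sex-linked expression cannot be told apart in any comparison below, although all 10 genes are autosomal.

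The elongase Elovl7 was 2.28-fold lower in the cKO library, Elovl6, Elovl1 and the desaturase Scd1 were lower by smaller amounts, and the remaining 6 genes lay within 1.2-fold. A gene was called where its level differed by 1.5-fold or more and its interval did not include equality. By this rule, 1 of the 10 genes was lower in cKO and 0 were higher, against 3.39% of all measured genes lower and 2.46% higher. At 1.2-fold or more 4 of 10 were lower and 0 higher, against 9.9% and 8.47% of all measured genes. A log2 ratio below 0 was found for 8 of the 10 genes and for 47.7% of measured genes. The median of the 10 was -0.19. All 10 were measured, and every count above includes all of them. In the plot of ratio against mean level, Elovl7, Elovl6, Elovl1 and Scd1 lie lowest against genes of their own level. Of genes within 2-fold of their level, 0.277% had a lower ratio than Elovl7, 1.73% than Elovl6, 3.06% than Elovl1 and 3.90% than Scd1. For the other 6 this share ran from 9.55% for Elovl5 and 11.2% for Fasn to 41.6% for Fads2.

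**Figure D1:**
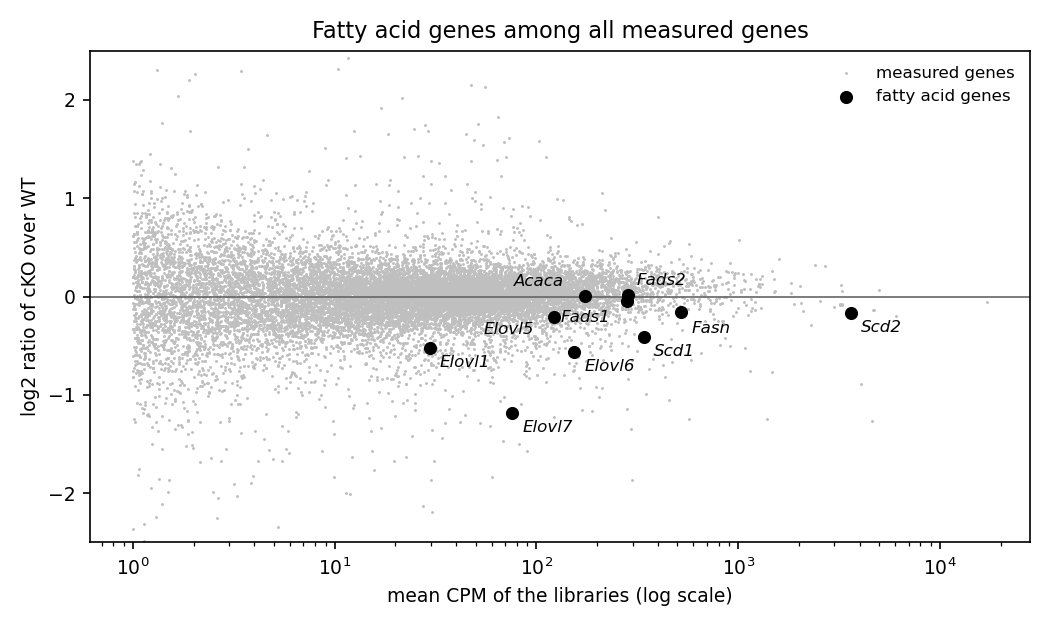
Mean level of the libraries (CPM, log axis) against the log2 ratio of cKO over WT for measured genes (grey) and the 10 fatty acid genes (black); 49 measured genes beyond a ratio of 2.5 in either direction are not drawn. Elovl7 lies at the lower edge of genes of its level, where 0.277% had a lower ratio, while Acaca and Fads2 lie on the line of equality.

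Per length, the order of the genes was nearly the same in both libraries. Scd2 was the most abundant, at 1432 TPM in cKO and 1570 TPM in WT, followed by Fads2, Fads1, Scd1, Fasn and Elovl5 in that order in each library. The lower end differed: Acaca, Elovl6, Elovl1 and Elovl7 followed in cKO, and Elovl6, Elovl1, Acaca and Elovl7 in WT. With 1 library per group the spread of these levels over samples was not measured, so neighbours in this order cannot be separated beyond counting error. These TPM values rest on the transcript lengths the authors used. For 8 of the 10 genes, the length that their FPKM and counts imply for the main transcript was within 5% of the GENCODE M21 length. For Fads2 the implied length was 1501 nt in both libraries, against 3150 nt in GENCODE M21, and for Elovl7 it was 5444 nt in cKO and 5445 nt in WT, against 4013 nt. At the GENCODE lengths Fads2 would stand at 208 TPM in cKO and 201 TPM in WT, close to Fads1, and Elovl7 at 26.5 TPM in cKO and 58.7 TPM in WT, in WT above Acaca and Elovl1. The length cancels in the ratio of a gene between libraries.

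**Figure D2:**
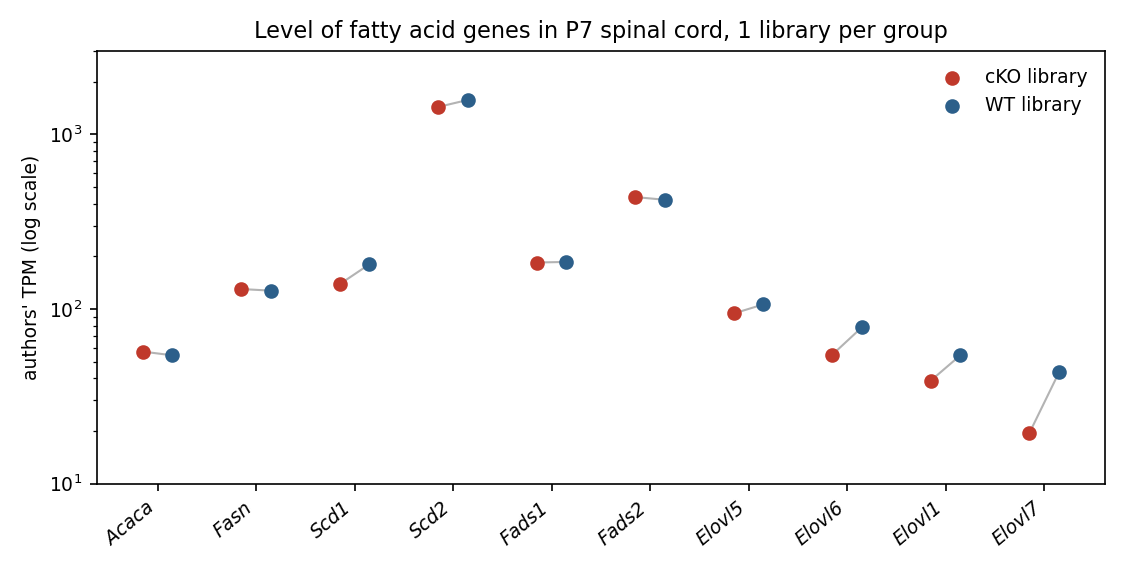
TPM of the 10 genes (log axis) in the cKO library (red, left of each pair) and the WT library (blue), with 1 library per group and so no error bars. Scd2 stood above all others at 1432 TPM in cKO and 1570 TPM in WT, and the steepest line is that of Elovl7; Fasn, which was lower in cKO by CPM, was slightly higher by TPM.

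Elovl7, an elongase of saturated and monounsaturated long chains, had the lowest ratio of the 10. The gene (ENSMUSG00000021696) lies on the plus strand of chromosome 13, spanning 108214404 to 108287105 (GRCm38). The files give it 2550 counts in cKO and 4514 in WT. Its level was 46.2 CPM in cKO and 105 CPM in WT, a log2 ratio of -1.19 (interval -1.29 to -1.09), or 2.28-fold lower. Of all measured genes, 0.817% had a lower ratio, and of the 4699 genes within 2-fold of its level, 0.277% did. The files list a single transcript, so no division between isoforms enters this value.

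Elovl6, which lengthens palmitate to stearate, was next. The gene (ENSMUSG00000041220) lies on the plus strand of chromosome 3, at 129532355 to 129638495. It had 124 CPM in cKO and 184 CPM in WT, from 6859 and 7884 counts. The log2 ratio was -0.56 (interval -0.63 to -0.50), 1.48-fold lower and so just short of the 1.5-fold limit, inside which the interval reaches. Its main transcript, Elovl6-201, accounted for 90.1% of Elovl6 counts in cKO and 89.7% in WT, and had a ratio of -0.56. Elovl6-205, with 8.49% in cKO and 8.94% in WT, had -0.64, so both of these forms were lower by like amounts.

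Elovl1, which makes very long saturated and monounsaturated chains, those incorporated into myelin sphingolipids among them, was the least abundant of the 10 in CPM. The gene (ENSMUSG00000006390) lies on the plus strand of chromosome 4, at 118428093 to 118432953. It had 1335 counts in cKO and 1493 in WT, or 24.2 CPM in cKO and 34.8 CPM in WT. The log2 ratio of -0.52 (interval -0.67 to -0.37) was 1.44-fold lower. Its exons share 53 nt with those of Cdc20 on the opposite strand, and the strand setting of the counting is not given in the sources used here. Cdc20, a cell cycle gene, had 497 counts in cKO and 448 in WT, and the summed locus had a ratio of -0.45.

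Elovl5, which lengthens polyunsaturated chains, differed less than the other 3 elongases among these genes. The gene (ENSMUSG00000032349) lies on the plus strand of chromosome 9, at 77917364 to 77984519. It had 114 CPM in cKO and 131 CPM in WT, a log2 ratio of -0.21 (interval -0.28 to -0.13), 1.16-fold lower and outside the 1.2-fold rule. Elovl5 minus Elovl6 was 0.35 in log2 ratio (normal-approximation 95% interval 0.26 to 0.45), and Elovl1 minus Elovl7 was 0.66 (0.48 to 0.84). Both intervals, like those of the other pairs below, cover counting error only.

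In the plot of ratios with their intervals, Elovl5 lies to the right of the 1.2-fold line and the other 3 elongases to its left. The family's makeup differed with these values. Summed over the 7 elongase genes Elovl1 to Elovl7, the library held 370 TPM in cKO and 433 TPM in WT. Elovl7 made up 5.27% of this sum in cKO and 9.997% in WT, and Elovl6 14.8% in cKO and 18.1% in WT. Elovl4, an elongase of the longest saturated and polyunsaturated chains and not among the 10 genes, made up 34.6% in cKO and 26.8% in WT, at 167 CPM in cKO and 155 CPM in WT (log2 ratio 0.11, interval 0.04 to 0.17). Elovl2, another elongase of polyunsaturated chains, had 57.1 CPM in cKO and 58.3 CPM in WT (-0.03, interval -0.14 to 0.08). Elovl3 was listed at 0 in both libraries. The 4 elongases among the 10 genes thus lay between -1.19 and -0.21, while the other 2 with counts lay at -0.03 and 0.11.

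**Figure D3:**
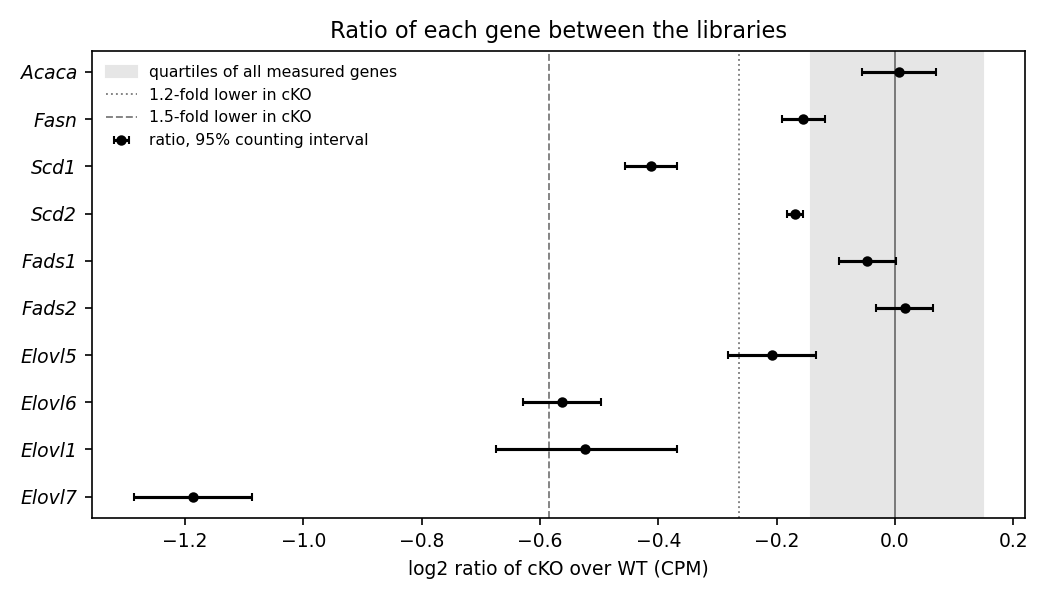
Log2 ratio of cKO over WT for each gene (points) with its exact 95% counting interval (bars), from synthesis at the top to elongation at the bottom; the grey band spans the quartiles of all 15917 measured genes and the broken lines mark 1.2-fold and 1.5-fold lower levels in cKO. Elovl7 at -1.19 lies left of the 1.5-fold line, Elovl6, Elovl1 and Scd1 lie between the lines, and Acaca, Fads1 and Fads2 lie in the grey band.

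The stearoyl-CoA desaturases, which turn stearate into oleate, were both lower by CPM, Scd1 by more than Scd2. Scd2 (ENSMUSG00000025203; plus strand of chromosome 19, 44293676 to 44306864), the main form in brain, had 187933 counts in cKO and 164277 in WT. This was 3408 CPM in cKO and 3829 CPM in WT, a log2 ratio of -0.17 (interval -0.18 to -0.15), 1.12-fold lower. Of all measured genes 99.9% had a lower level, so counting error is small, but nothing in these data measures the difference between animals at this size. Scd1 (ENSMUSG00000037071; minus strand of the same chromosome, 44394451 to 44407709), the main form in liver and fat, had 293 CPM in cKO and 390 CPM in WT, a ratio of -0.41 (interval -0.46 to -0.37), 1.33-fold lower. Scd1 minus Scd2 was -0.24 (-0.29 to -0.20). Scd2 made up 91.1% of the TPM of the 4 Scd genes in cKO and 89.7% in WT. Scd3 and Scd4 together had 95 counts in cKO and 62 in WT.

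Because Scd1 and Fasn are abundant in fat, adipocyte genes were examined as well. Of 12 adipocyte markers 5 were measured, and these 5 summed to 56.6 CPM in cKO and 59.1 CPM in WT. The defining marker Adipoq had 3 counts in cKO and 8 in WT, and Plin1 had 12 and 17. Ucp1, a marker of brown fat, had 3 counts in cKO and 58 in WT (log2 ratio -4.64, interval -7.33 to -2.24), with a mean below 1 CPM. Fabp4, which was measured, had 26 and 71 (-1.81, interval -2.87 to -0.88) and was lower by the 1.5-fold rule. Those 4 genes had more counts in WT, as had Cidec (4 in cKO and 14 in WT), Plin4 (45 and 56) and Lep (0 and 1). Pck1, with 12 counts in cKO and 0 in WT, and Retn, with 5 and 2, had more in cKO. Dgat2, Lipe and Cidea, the most abundant of the list, made up nearly all of the summed CPM. They had 1879, 765 and 405 counts in cKO and 1477, 600 and 333 in WT, with log2 ratios of -0.01, -0.01 and -0.08. The defining marker Adipoq was thus near 0 in both libraries. Their part in the Scd1 ratio was not tested.

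Fads1 and Fads2, which place the double bonds of polyunsaturated fatty acids, were close to equality. Fads1 (ENSMUSG00000010663; plus strand of chromosome 19, 10182888 to 10196870) had 277 CPM in cKO and 286 CPM in WT, a log2 ratio of -0.05 (interval -0.10 to 0.0019). Fads2 (ENSMUSG00000024665; minus strand, 10064164 to 10101503), its neighbour, had 285 CPM in cKO and 282 CPM in WT, a ratio of 0.016 (-0.032 to 0.065). Fads1 minus Fads2 was -0.06 (-0.13 to 0.0056), so a difference within this pair was not detectable at this depth. Each has a single listed transcript.

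Acaca and Fasn, the enzymes of chain synthesis itself, differed little. Acaca (ENSMUSG00000020532; plus strand of chromosome 11, 84129672 to 84401651), the acetyl-CoA carboxylase of the cytosol, had 9588 counts in cKO and 7426 in WT, which is 174 CPM in cKO and 173 CPM in WT (log2 ratio 0.0065, interval -0.056 to 0.069). Acaca-201 held 96.1% of its counts in cKO and 96.2% in WT. Fasn (ENSMUSG00000025153; minus strand, 120805846 to 120824547), fatty acid synthase, had 27171 counts in cKO and 23532 in WT. That is 493 CPM in cKO and 549 CPM in WT, a ratio of -0.15 (-0.19 to -0.12), but on the authors' TPM the direction turned: 130 TPM in cKO and 127 TPM in WT, a log2 ratio of 0.03. Over all measured genes, log2 ratios on TPM ran higher than on CPM by a median of 0.036. Acaca minus Fasn was 0.16 (0.09 to 0.23) on CPM and 0.04 on TPM.

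Fasn's change of sign went with its division between 2 transcripts. Fasn-201, of 10050 nt, had 14050 counts in cKO and 23448 in WT, and Fasn-205, of 8333 nt, had 12991 counts in cKO and 0 in WT. Fasn-205 was thus assigned 47.8% of the gene's counts in cKO (Wilson interval 47.0% to 48.7%). For 0 of 23532 counts in WT, the limit by counting error alone is a share of 0.0255%. Neither value covers error in assigning reads between the 2 overlapping transcripts, so neither bounds the true share. Every exonic base of Fasn-205 is also in Fasn-201. The 1717 nt that belong to Fasn-201 alone comprise 452 nt before the start of Fasn-205, 1259 nt beyond its end and 6 nt between. The 3 protein-coding transcripts summed had a ratio of -0.16. A count on the shorter transcript adds more TPM than a count on the longer one, and the gene's TPM is the sum over its transcripts. The division rests on the authors' estimate, and these files give no read positions that would test it.

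Elovl1 was the other gene whose transcripts diverged, as the stacked bars of transcript shares show. Elovl1-201, of 1811 nt, took 66.5% of Elovl1 counts in cKO (62.8% to 69.9%) and 57.7% in WT (54.2% to 61.3%), with a ratio of -0.32. Elovl1-203 had 7 counts in cKO and 309 in WT, and Elovl1-207 had 0 in cKO and 128 in WT. Elovl1-202, which starts within the gene at 118429701, had 387 counts in cKO and 140 in WT, or 29.0% of the gene in cKO (25.7% to 32.6%) and 9.38% in WT (7.49% to 11.7%). All exonic bases of Elovl1-203 and Elovl1-207 lie within Elovl1-201, whereas 130 nt of the 1137 nt of Elovl1-202 do not. The intervals of these shares do not cover error in assigning reads between the transcripts. The 4 coding transcripts summed had a ratio of -0.53, close to that of the gene. The other 8 genes had 1 transcript each with at least 10% of the counts in either library.

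**Figure D4:**
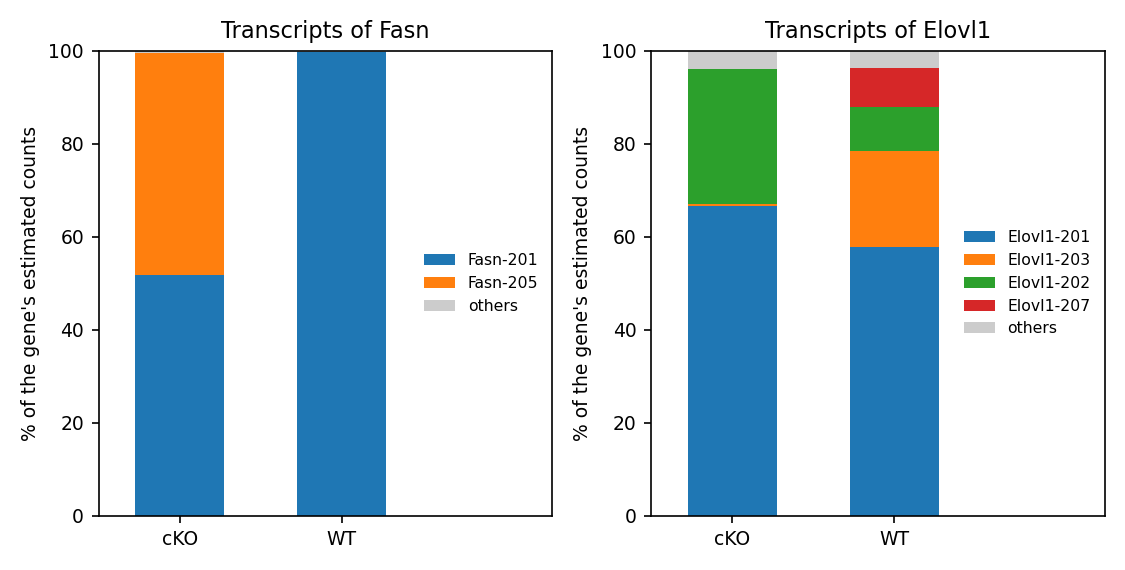
Share of each gene's estimated counts (percent) assigned to its transcripts in the cKO library (left bar) and the WT library (right bar), for Fasn and Elovl1; transcripts under 5% in both libraries are pooled in grey. Fasn-205 holds 47.8% in cKO and none in WT, and Elovl1-202 holds 29.0% in cKO and 9.38% in WT.

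Promoter sequence is shown for the 3 elongases that were lower by the 1.2-fold rule and for Fasn. Fasn lay within 1.2-fold, but its interval left out equality. RefSeq (GRCm38.p6) windows were found for 7 of the 10 genes, with 2 starts for Elovl1. None was found for Scd1, Scd2 and Fads1, so these genes were not searched. The 250 bases before each start were searched on both strands for TCACNCCAC, the core of the sterol regulatory element bound by SREBP factors, for ATTGG, the CCAAT box, and for CANNTG, the E box. TCACNCCAC was found in 0 of the 8 windows and in 1.05% of all 32851 RefSeq windows of this length. ATTGG was in 3 windows (33.8% of all) and CANNTG in 5 (66.2% of all). The windows, 5′ to 3′ on the strand of the gene, are those of Elovl7 (plus strand, chr13:108214154-108214403), Elovl6 (plus, chr3:129532136-129532385), the start of Elovl1-201 (plus, chr4:118427843-118428092), that of Elovl1-202 (plus, chr4:118429451-118429700) and Fasn (minus, chr11:120824548-120824797), with capitals marking CCAAT and E box matches.
Elovl7: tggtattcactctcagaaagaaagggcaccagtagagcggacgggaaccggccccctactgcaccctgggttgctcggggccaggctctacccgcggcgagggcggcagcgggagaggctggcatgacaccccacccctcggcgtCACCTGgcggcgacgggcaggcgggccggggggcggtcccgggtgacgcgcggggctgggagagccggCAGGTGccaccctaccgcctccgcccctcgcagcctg
Elovl6: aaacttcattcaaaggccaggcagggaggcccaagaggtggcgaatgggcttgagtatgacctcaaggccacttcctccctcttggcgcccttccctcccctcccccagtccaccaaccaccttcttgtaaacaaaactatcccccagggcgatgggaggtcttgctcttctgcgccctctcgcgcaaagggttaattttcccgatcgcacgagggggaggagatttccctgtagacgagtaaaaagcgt
Elovl1-201: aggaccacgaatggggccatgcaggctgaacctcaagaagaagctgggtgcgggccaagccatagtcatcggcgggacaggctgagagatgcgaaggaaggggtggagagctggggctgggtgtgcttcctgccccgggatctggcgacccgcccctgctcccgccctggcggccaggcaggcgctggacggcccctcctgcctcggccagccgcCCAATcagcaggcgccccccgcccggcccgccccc
Elovl1-202: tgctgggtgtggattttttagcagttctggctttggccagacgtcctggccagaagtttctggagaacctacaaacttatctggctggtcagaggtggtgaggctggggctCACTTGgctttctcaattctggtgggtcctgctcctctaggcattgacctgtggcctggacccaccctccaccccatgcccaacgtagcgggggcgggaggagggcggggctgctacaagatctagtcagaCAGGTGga
Fasn: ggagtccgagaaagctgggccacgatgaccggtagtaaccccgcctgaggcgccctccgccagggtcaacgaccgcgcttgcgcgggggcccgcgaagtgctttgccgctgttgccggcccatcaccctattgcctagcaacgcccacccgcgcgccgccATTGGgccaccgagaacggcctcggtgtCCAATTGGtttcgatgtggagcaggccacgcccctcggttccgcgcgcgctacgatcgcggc
Elovl7, the lowest of the 10 by ratio, held 2 E boxes and no CCAAT box, and its window was 73.6% G and C. Elovl6 held neither. The start of Elovl1-201 had 1 CCAAT box, 35 bases upstream, and that of Elovl1-202 had 2 E boxes and no CCAAT box. Fasn had 3 CCAAT matches, of which 2 overlap each other and an E box. The 3 elongases therefore shared none of the 3 motifs across their main starts. Among the windows not shown, that of Acaca held 1 E box and no CCAAT box, that of Fads2 neither, and that of Elovl5 2 of each. Acaca and Fads2 were the genes nearest to equality. Matches of this kind describe letters in a window, and no binding was measured.

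Other genes of the pathway were described from lists chosen with earlier results of these data known, so their counts are descriptions. Among all measured genes, 3.39% were lower and 2.46% higher by the 1.5-fold rule, and 9.9% lower and 8.47% higher at 1.2-fold. Of 10 genes of cytosolic synthesis and precursor supply, 0 passed the 1.5-fold rule, 3 were lower and 1 higher at 1.2-fold, and the median was -0.14. Acly, which makes cytosolic acetyl-CoA from citrate, was the most abundant, with 313 CPM in cKO and 337 CPM in WT (-0.11). Acss2, which makes it from acetate, had 49.1 CPM in cKO and 71.9 CPM in WT (-0.55, interval -0.66 to -0.44). Acat2, a thiolase that joins acetyl-CoA units, had 95.8 CPM in cKO and 122 CPM in WT (-0.35). Mid1ip1, whose protein promotes the assembly of acetyl-CoA carboxylase into active filaments, had 104 CPM in cKO and 70.0 CPM in WT (0.57, interval 0.48 to 0.67).

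The rest of the elongation and desaturation machinery had a median of 0.00035. Of 13 measured genes, 0 passed 1.5-fold, 2 were lower and 1 higher at 1.2-fold, against 9.9% and 8.47% of all measured genes at 1.2-fold. Tecr, the reductase of the last step of each elongation round, had 285 CPM in cKO and 271 CPM in WT (0.07). Hsd17b12, the reductase of an earlier step, had 104 CPM in cKO and 77.3 CPM in WT (0.43, interval 0.34 to 0.52). Cyb5a, the cytochrome that passes electrons to desaturases, had 34.1 CPM in cKO and 50.9 CPM in WT (-0.58, interval -0.71 to -0.45). Hacd4, a dehydratase of the cycle, was at -0.34. These 4 cycle and electron transfer genes thus lay on both sides of equality.

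Acyl-CoA synthetase and transport genes had a median of -0.05. By the 1.5-fold rule 1 of 15 was lower and 0 higher, against 3.39% and 2.46% of all measured genes. That gene was Acsl1, an acyl-CoA synthetase, with 42.4 CPM in cKO and 67.9 CPM in WT (-0.68, interval -0.79 to -0.57). Fabp7, a fatty acid binding protein of radial glia and astrocytes, was the highest of the list by CPM, with 250 CPM in cKO and 297 CPM in WT (-0.25). Per length it had 715 TPM in cKO and 827 TPM in WT, against 794 TPM and 826 TPM for Dbi of the same list. Among 19 measured regulators 0 passed 1.5-fold and 1 was lower at 1.2-fold, against 9.9% of all measured genes. Their median was 0.02. Srebf2 was the most abundant, with 293 CPM in cKO and 309 CPM in WT (-0.08). Insig1, a sterol sensor that holds SREBP factors in the endoplasmic reticulum and is itself their target, had 97.9 CPM in cKO and 134 CPM in WT (-0.45, interval -0.52 to -0.37). Srebf1, the SREBP factor best known for fatty acid genes and chosen after its value was seen, had 90.3 CPM in cKO and 85.0 CPM in WT (0.09).

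Lipid pathways that feed the myelin sheath are set beside these genes, from the same libraries. Of 21 cholesterol synthesis genes 4 were lower by the 1.5-fold rule, 17 at 1.2-fold and 0 higher by either. Their median was -0.44, against -0.19 for the 10 fatty acid genes. Among all measured genes 3.39% were lower and 2.46% higher at 1.5-fold, and 9.9% and 8.47% at 1.2-fold. Hmgcs1, an early enzyme of that pathway, had 888 CPM in cKO and 1279 CPM in WT (-0.53). Of 10 myelin sphingolipid genes 4 were lower by the 1.5-fold rule and 0 higher, with a median of -0.35. At 1.2-fold 6 were lower and 1 higher. Ugt8a, which makes galactosylceramide, had 339 CPM in cKO and 802 CPM in WT (-1.24), and Fa2h, which hydroxylates the fatty acids of those lipids, had 45.2 CPM in cKO and 134 CPM in WT (-1.57). Cers2, which uses very long chains of the kind Elovl1 makes, had 101 CPM in cKO and 175 CPM in WT (-0.80). Elovl7 at -1.19 was thus near Ugt8a, and the other 9 fatty acid genes lay above Cers2.

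Markers of the cell types of the cord differed between the libraries by unlike amounts and in both directions. The shares of all measured genes were 3.39% lower and 2.46% higher by the 1.5-fold rule, and 9.9% and 8.47% at 1.2-fold. The 20 mature oligodendrocyte and myelin markers summed to 9011 CPM in cKO and 18252 CPM in WT, and 17 of them were lower by the 1.5-fold rule and 0 higher (median -0.80, range -1.66 to -0.50). Newly formed oligodendrocyte markers summed to 2297 CPM in cKO and 3294 CPM in WT, with 5 of 10 lower by the rule (median -0.61). Precursor markers summed to 1413 CPM in cKO and 1446 CPM in WT, with 0 of 10 past 1.5-fold (median -0.13). Astrocyte markers summed to 6430 CPM in cKO and 6623 CPM in WT (median -0.05), and neuron markers to 7638 CPM in cKO and 6760 CPM in WT (median 0.20), with 0 of 10 past 1.2-fold in each list. Schwann cell markers had a median of -0.20. Medians were -0.05 for microglia, 0.14 for endothelium and pericytes, -0.16 for meninges and fibroblasts, 0.53 for red blood cells and 0.20 for the 3 measured skeletal muscle genes. The part of these shifts in the ratios of the fatty acid genes was not tested, and in whole cord fewer cells of a type and less RNA per cell cannot be told apart.

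**Figure D5:**
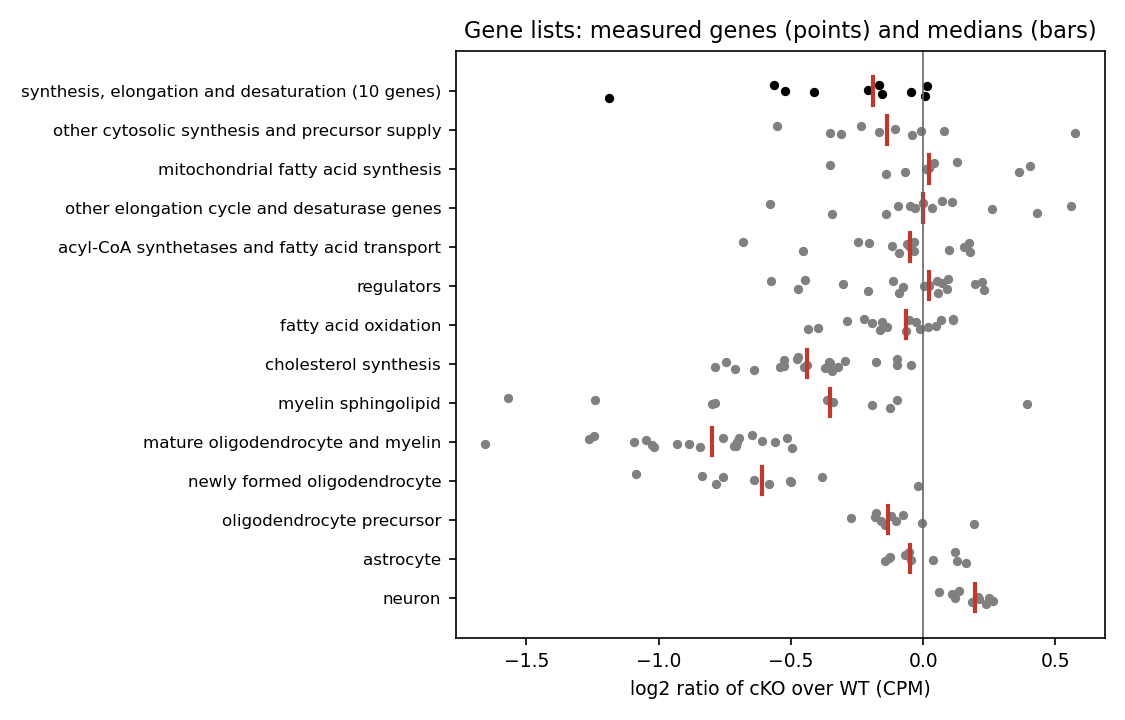
Log2 ratio of cKO over WT for the measured genes of each list (points) with the list's median (red bars); the 10 fatty acid genes are in black at the top. Their median is -0.19, against -0.44 for cholesterol synthesis, -0.80 for mature oligodendrocyte and myelin markers and 0.20 for neuron markers.

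As a sum, the 10 genes took 0.524% of all counts in cKO and 0.597% in WT, a log2 ratio of -0.19 (interval -0.20 to -0.18). Scd2 supplied 65.1% of that sum in cKO and 64.2% in WT, so the value is largely that of Scd2. Without Scd2 the other 9 genes had a ratio of -0.22 (-0.24 to -0.20).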

How the data were processed

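Per the labels' protocols, cord was stored frozen in a preservative, total RNA was isolated with Trizol, and mRNA libraries were prepared with a VAHTS V2 kit. CASAVA, Bowtie2 2.3.2 and the build GRCm38.p6 are listed in the submitters' processing notes without a role. How reads were counted, on which annotation and whether by strand is not given in the sources used here. Per the file headers, the authors' tables hold estimated counts, TPM and FPKM for genes and transcripts. The deposited counts are whole numbers, but 98.9% of those of low transcripts lie between a constant times FPKM times length and the next whole number (tolerance 0.1). For genes with 1 transcript that product lay within 0.2 of an even number for 39.4% of genes in cKO and 42.2% in WT, and of an odd number for 16.0% and 14.7%, so a fragment was taken as 2 counts for intervals.

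Library sizes were scaled with TMM factors of 0.9994 for cKO and 1.0006 for WT (edgeR 4.0.16, R 4.3.3). Ratios of CPM, without a pseudocount, have exact Clopper-Pearson 95% intervals (scipy 1.17.1, Python 3.11.15), transcript shares have Wilson intervals, and a count of 0 was given a limit of 3 fragments. PCR copies are not independent molecules, so intervals and limits cover counting error only. With 1 library per group no test was run. The scripts were tested on simulated data. Members, lists and rules were chosen with earlier results of these data known. All 10 genes were named, with transcripts of at least 10% of a gene's counts. From each other pathway list the gene of highest mean CPM was named. Up to 3 of largest ratio past 1.5-fold, or past 1.2-fold where none was, were named too. Other names are relatives in the same family, overlapping genes or markers. Not every gene this takes is reported here. A listed gene, Hsd17b8, was not found under its symbol. Other settings covered scaling, unit, filter, interval, library size and transcript choice. A comparison of protein sequences was not run.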

Additional observations from a re-analysis of the deposited data

How the results depend on the processing

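Of 10 other settings and 1 chosen after seeing the data (counts summed with genes that share exons), the counts of genes lower by at least 1.2-fold and 1.5-fold changed with 1. The settings of filter (none, or a mean of at least 5 CPM) could not change these counts, since all 10 genes passed either filter. The interval setting left every ratio as it was and could not remove a call, so these settings are no check on the 10 genes. Taking the most abundant transcript of each gene in place of the gene, 5 genes in place of 4 were lower at 1.2-fold and 2 in place of 1 at 1.5-fold, since Fasn-201 had a ratio of -1.10, and Elovl1 moved to -0.32. With those transcripts the median was -0.26, the summed ratio -0.25, Acaca minus Fasn 1.11 and Elovl1 minus Elovl7 0.87. On the authors' TPM Fasn reversed to 0.03 (0.0307 with a pseudocount of 0.1 and 0.0305 with 1), Acaca minus Fasn was 0.0398 and 0.0389, and the summed ratio was -0.13 with either. Upper quartile scaling gave a summed ratio of -0.17 and put 1 gene of precursor supply, Mid1ip1, past 1.5-fold. On TPM 1 gene was lower and 1 higher in that list with either pseudocount, 1 was lower among other elongation and desaturase genes and 1 higher among myelin sphingolipid genes. With a pseudocount of 0.1, 1 regulator was lower, and with 1, 0 acyl-CoA synthetase and transport genes were. Apart from single transcripts, the ratio of Elovl7 lay between -1.19 and -1.11 and that of Scd1 between -0.42 and -0.37. That of Scd2 lay between -0.18 and -0.13, outside its counting interval with upper quartile scaling and on TPM. For Acaca the range was -0.001 to 0.070, with both TPM values just above its counting interval. On TPM no interval was available and the fold alone was used. No paired analysis was possible because each group has 1 library. Depth limits Elovl1 most, with 668 fragments in cKO and 746 in WT.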

Other observations

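Fatty acid breakdown and the separate mitochondrial synthesis pathway were described as well. Among all measured genes 3.39% were lower and 2.46% higher by the 1.5-fold rule, and 9.9% and 8.47% at 1.2-fold. Of 17 measured genes of fatty acid oxidation, 0 passed the 1.5-fold rule in either direction, 3 were lower at 1.2-fold and 0 higher, and the median was -0.06. Abcd3, a peroxisomal membrane transporter, had 114 CPM in cKO and 151 CPM in WT (log2 ratio -0.40, interval -0.47 to -0.33). Cpt2, of the mitochondrial carnitine shuttle, was at -0.43 (-0.67 to -0.20) on 599 counts in cKO and 630 in WT, and Hadh, a dehydrogenase of mitochondrial oxidation, at -0.29. Of 9 measured genes of mitochondrial synthesis, 0 passed 1.5-fold, 1 was lower and 1 higher at 1.2-fold, and the median was 0.02. Ndufab1, its acyl carrier protein, had 62.3 CPM in cKO and 65.4 CPM in WT (-0.07), Mecr, a reductase, was at 0.41 (0.16 to 0.65), and Lipt2, which transfers lipoyl precursors, was at -0.35 (-0.69 to -0.01).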
